A study of Mus musculus with 28 samples.

Results

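The Dlk1-Meg3 and H19-Igf2 domains of the mouse are imprinted, meaning that the copy inherited from one parent is used differently from the copy inherited from the other. Both were examined for open chromatin during the reprogramming of fibroblasts to pluripotent cells. The assay was ATAC-seq, where a transposase places sequencing adapters into exposed DNA, and accessibility enters here as the peaks called in each library. The Dlk1-Meg3 domain was taken as chr12:110640000-110990000 and the H19-Igf2 domain as chr7:149700000-149900000, in build mm9. Peaks of the 28 libraries that overlapped a domain were merged where they overlapped each other, and the libraries that called each merged region were counted. The domains held 39 and 22 regions, which is 61 of 172177 regions in the genome, built from 227 and 97 of 1272011 peaks.

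The 28 libraries formed 7 groups of 4. All cells were Tet2-/- and carried doxycycline-inducible OKSM, the reprogramming factors Oct4, Klf4, Sox2 and c-Myc, together with rtTA, the activator that responds to doxycycline. They came from embryonic day 12.5 embryos of the strain background labelled V6.5 129XBI/6. One group was mouse embryonic fibroblasts (MEFs) at day 0, untreated and with no sort named. The others were day 5 and day 10 reprogramming cells transduced with the empty retroviral vector pMXs, with Tet2-WT, or with Tet2-E, which the series calls a stalling mutant. These cells were grown on mitomycin-treated MEF feeders in 2i/LIF medium with doxycycline and were sorted on SSEA1-RFP. The comparison between MEFs and later cells therefore also spans vector, medium, feeders and sort, which cannot be told apart. Whether replicates were separate cultures or embryos is not said in the labels, and the p-values below then rest on a spread between libraries that may be purely technical.

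Imprinted domains carry control regions whose DNA is methylated on one parental copy. In the Dlk1-Meg3 domain the copy from the father expresses Dlk1, a transmembrane protein of the Notch ligand family, and Rtl1, a protein derived from a retrotransposon. The copy from the mother expresses Meg3 and further noncoding RNAs, Rian and Mirg among them, which host snoRNAs and microRNAs. In the H19-Igf2 domain the copy from the mother expresses H19, a long noncoding RNA, and the copy from the father expresses Igf2, a growth factor of the embryo. Loss of Meg3 expression is a known fault of some induced pluripotent lines, and Tet2 oxidises methylated cytosine at CpG sites. Peaks do not separate the parental copies. In bulk libraries a site open in few cells and a site weakly open in all of them cannot be told apart either.

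In the RefSeq table of build GRCm38.p6, the genes from Dlk1 to Mirg numbered 89, of which 2 were protein coding, 6 were long noncoding, 60 were microRNAs and 19 were snoRNAs. The long genes followed the order Dlk1, Gm34081, Gm34017, Meg3, Rtl1, 6430411K18Rik, Rian and Mirg. From H19 to Ins2, the insulin gene next to Igf2, the table listed 7 genes, 2 of them protein coding, with Gm33148, Igf2 and Igf2os between them. The peaks are in mm9 and no annotation of that build was used, so no region below is assigned to a gene, exon, promoter or control element. Promoters are shown for 3 of the 4 genes as RefSeq lists them in GRCm38.p6, because the CpG sites in them are the letters on which methylation and Tet2 act. Each line gives the 150 bases before a listed start, 5′ to 3′ on the gene's strand, with CpG in capitals.
Dlk1, chr12:109452673-109452822, plus strand: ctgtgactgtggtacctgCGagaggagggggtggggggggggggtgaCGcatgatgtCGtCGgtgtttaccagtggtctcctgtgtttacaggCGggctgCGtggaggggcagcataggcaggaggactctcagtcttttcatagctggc
Meg3, chr12:109540846-109540995, plus strand: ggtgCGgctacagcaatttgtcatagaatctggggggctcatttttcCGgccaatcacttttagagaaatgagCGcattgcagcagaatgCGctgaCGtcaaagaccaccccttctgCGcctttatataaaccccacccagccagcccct
Igf2, chr7:142658805-142658954, minus strand: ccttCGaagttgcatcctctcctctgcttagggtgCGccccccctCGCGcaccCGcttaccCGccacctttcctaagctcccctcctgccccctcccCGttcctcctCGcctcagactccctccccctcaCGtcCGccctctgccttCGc
Over the full 300 bases listed per promoter, Dlk1 had 9 CpG, Meg3 had 13 and Igf2 had 24, against a median of 7 over 32851 promoters. As many CpG as Dlk1 or more were found in 45.8% of promoters, as many as Meg3 or more in 37.9%, and as many as Igf2 or more in 19.98%. Meg3 has 2 listed starts and Igf2 has 4, and the starts with the fewest CpG had 1 and 2. The letters TGACGTCA, a palindrome known as the cAMP response element and so the same on both strands, were found in the Meg3 promoter shown and in 1.79% of all promoters. H19 was not matched in the RefSeq promoter table. These sequences were not set against the mm9 regions.

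Both domains held mostly weak peaks. Each peak was ranked in its own library's list by the authors' −log10 p, and the median rank was 64.0% from the top in the Dlk1-Meg3 domain and 68.0% in the H19-Igf2 domain. Only 71 of 227 and 26 of 97 peaks were in the top 50% of their lists, and 6 and 0 were in the top 10%. The median summit pileup, the number of reads or fragments stacked at the highest point of a peak, was 11 and 10 against 13 over all peaks. The authors' fold of a peak over its own local background had a median of 5.76 and 5.83 against 6.52 over all peaks. With so few reads at a summit, a region that a library did not call may lie just under the calling limit. The lowest pileup called anywhere in a library was 5 to 7.

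No region of either domain was called in all 28 libraries, a state reached by 7740 of 172177 regions (4.50%) in the genome. At so small a share, 0 among 39 and 0 among 22 regions is not read as a trait of the domains. The most widely called regions of each domain were found in 22 libraries. In the Dlk1-Meg3 domain 15 regions were called in 1 library, 10 in 2 to 5 and 14 in 6 or more, of which 4 were in 20 or more. For the H19-Igf2 domain the counts were 12, 4 and 6, with 1 in 20 or more. Over the genome, 36.1% of regions were called in 1 library, 31.2% in 2 to 5 and 32.7% in 6 or more, with 12.7% in 20 or more, so the shares of the Dlk1-Meg3 domain lie near these. The 25 and 16 regions in fewer than 6 libraries had fold values of 3.99 to 8.01 and 3.23 to 7.32.

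The Dlk1-Meg3 domain was called more densely than its surroundings. It held 6.86 regions in at least 2 libraries per 100 kb, against 2.57 in the window of the same length before it and 4.57 in the one after it. The H19-Igf2 domain had 5.00 per 100 kb, against 9.50 before it and 4.50 after it. These densities are descriptions of 1 stretch each and were not tested. Long stretches had no peak in any library. The longest in the Dlk1-Meg3 domain was chr12:110867379-110925860 (58.5 kb), followed by chr12:110938643-110987916 (49.3 kb) and chr12:110712088-110747598 (35.5 kb). The longest in the H19-Igf2 domain were chr7:149741859-149781263 (39.4 kb) and chr7:149861850-149900000 (38.2 kb), the second running to the end of the domain.

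**Figure D1:**
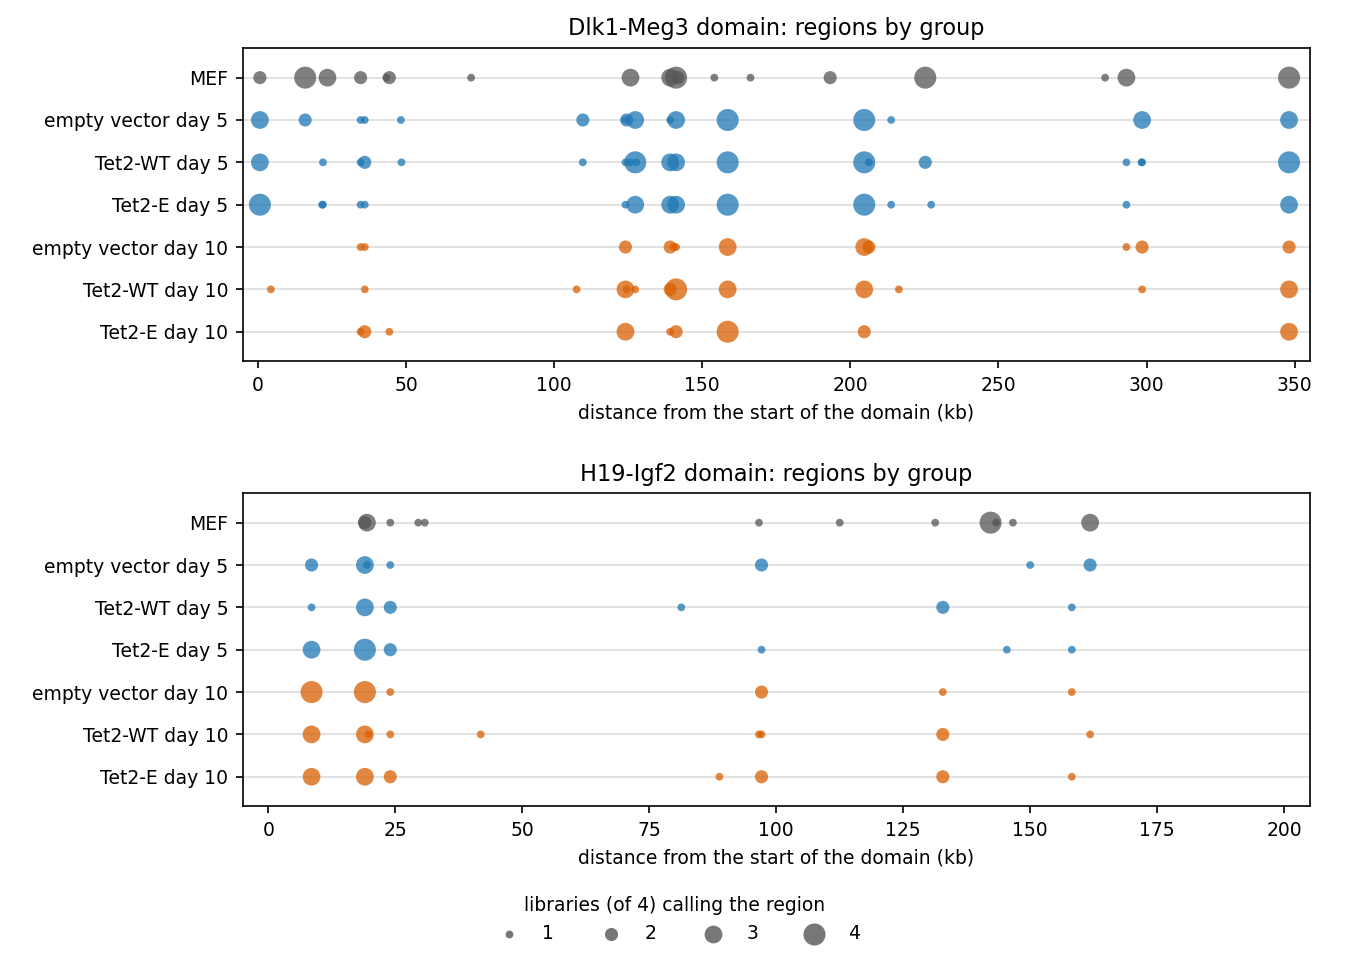
Regions of the Dlk1-Meg3 domain (top) and the H19-Igf2 domain (bottom) by distance from the start of the domain in kb (horizontal) and by group (vertical); the size of a point gives how many of the group's 4 libraries called the region, and no point means none. Regions at 158.6 and 204.7 kb of the Dlk1-Meg3 domain were called by 12 of 12 day 5 libraries and by no MEF library, and the region at 142.2 kb of the H19-Igf2 domain was called by the 4 MEF libraries alone.

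The number of peaks per library in the Dlk1-Meg3 domain was 10.75 ± 3.69 in MEFs (SD, n = 4), 9.67 ± 2.19 at day 5 (n = 12) and 5.67 ± 2.02 at day 10 (n = 12). The 4 MEF libraries had 15, 6, 11 and 11 peaks. At day 5 the empty vector libraries had 10, 10, 10 and 6, the Tet2-WT libraries 10, 8, 8 and 14, and the Tet2-E libraries 12, 11, 10 and 7. At day 10 they had 5, 6, 9 and 3, then 6, 7, 5 and 8, then 8, 4, 4 and 3. Day 10 counts were mostly under day 5 counts with some overlap, and the vectors overlapped on each day. The lists themselves ran from 27809 to 72140 peaks. Per 10000 peaks of the library, the domain held 1.90 in MEFs, 1.95 at day 5 and 1.51 at day 10. The typical background pileup of a library also differed, at 0.394 to 0.66 in MEFs, 0.746 to 1.04 at day 5 and 0.361 to 0.768 at day 10, and its part in the counts below was not tested.

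The H19-Igf2 domain had fewer peaks, with 5.00 ± 1.41 in MEFs (SD, n = 4), 2.92 ± 0.996 at day 5 (n = 12) and 3.50 ± 1.38 at day 10 (n = 12). The MEF libraries had 7, 5, 4 and 4. Day 5 libraries ranged from 1 to 5 with a median of 3, and day 10 libraries from 2 to 6 with a median of 3.5. The ranges overlapped. Per 10000 peaks the domain held 0.913, 0.594 and 0.907.

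**Figure D2:**
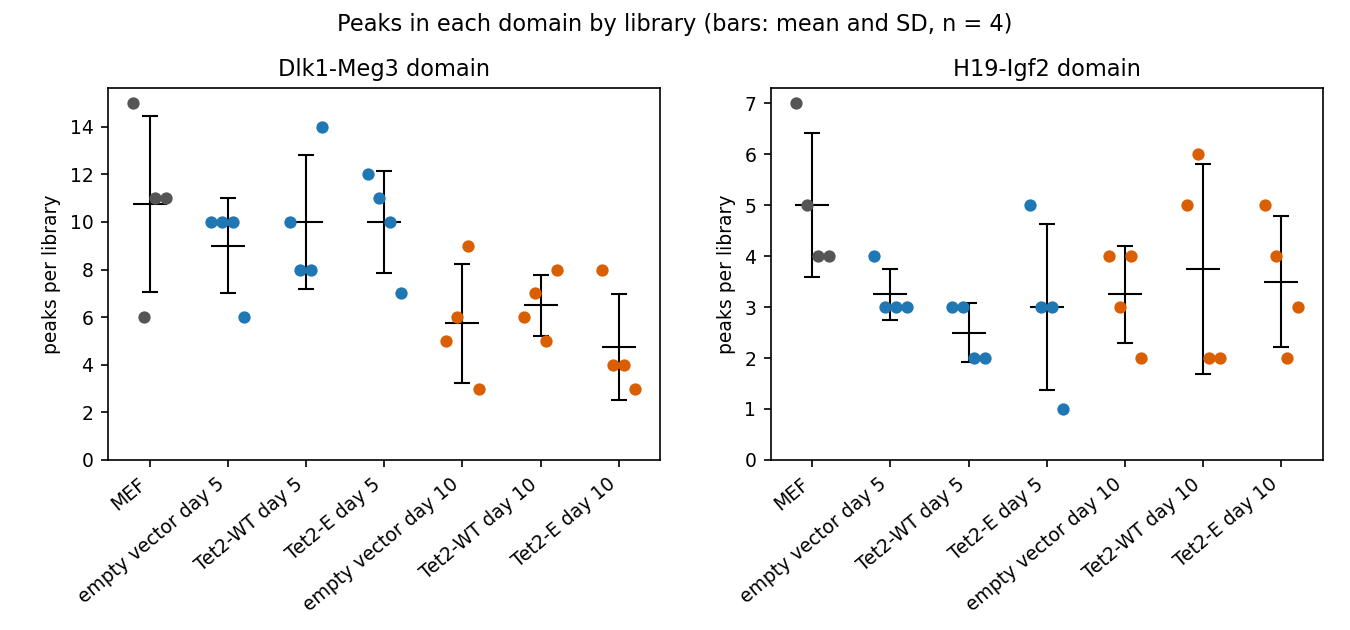
Number of peaks called in each domain (vertical) in each of the 28 libraries, by group (horizontal); points are libraries and bars give the mean and SD of 4. In the Dlk1-Meg3 domain the day 10 groups have means of 4.75 to 6.5 against 9 to 10 at day 5, while in the H19-Igf2 domain all group means lie between 2.5 and 5.

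Single regions were compared by the number of libraries that called them. Fisher's exact test was used for MEFs against the 12 libraries of a later day, with p-values adjusted by Benjamini-Hochberg over all regions tested in the genome and a threshold of 0.05. From MEF to day 5, 3 of 23 tested regions of the Dlk1-Meg3 domain were gained and 3 were lost, against 9.81% gained and 16.1% lost over the 99090 regions tested. Of the H19-Igf2 domain 0 of 9 were gained and 1 was lost. At an unadjusted p under 0.05, 3 of 23 regions of the Dlk1-Meg3 domain had more and 7 had fewer calling libraries by day 5, and 0 and 2 of 9 in the H19-Igf2 domain, against 11.7% and 26.5% over the genome. From MEF to day 10, 1 of 19 regions of the Dlk1-Meg3 domain was gained and 4 were lost, and 1 of 10 regions of the H19-Igf2 domain was gained and 2 were lost. Over the 89226 regions tested for day 10, 5.66% were gained and 22.6% were lost. The unadjusted counts for day 10 were 1 and 8 of 19 in the Dlk1-Meg3 domain and 1 and 3 of 10 in the H19-Igf2 domain, against 7.19% and 35.1%. The counts of both domains are small, and none stands far from these genome-wide shares. With 1 MEF library left out, the number of calls in the Dlk1-Meg3 domain for day 5 fell from 6 to 2 (without library 1 or 4) or 3 (without library 2 or 3). Such a count can include regions that did not pass before. Without library 3, only chr12:110798258-110798877 and chr12:110844379-110844959 of the 6 held, so its count of 3 includes a region outside the 6. For day 10 the number in this domain fell from 5 to 2 without library 1 or 4 and to 3 without library 3. In the H19-Igf2 domain the number for day 10 fell from 3 to 1 without library 1 or 2. The single H19-Igf2 call for day 5 became 2 without MEF library 3 or empty vector day 5 library 3. The median change in the share of calling libraries was −16.7 and −41.7 percentage points in the Dlk1-Meg3 domain and 16.7 and 12.5 in the H19-Igf2 domain, against 0 and −8.33 over all regions.

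**Figure D3:**
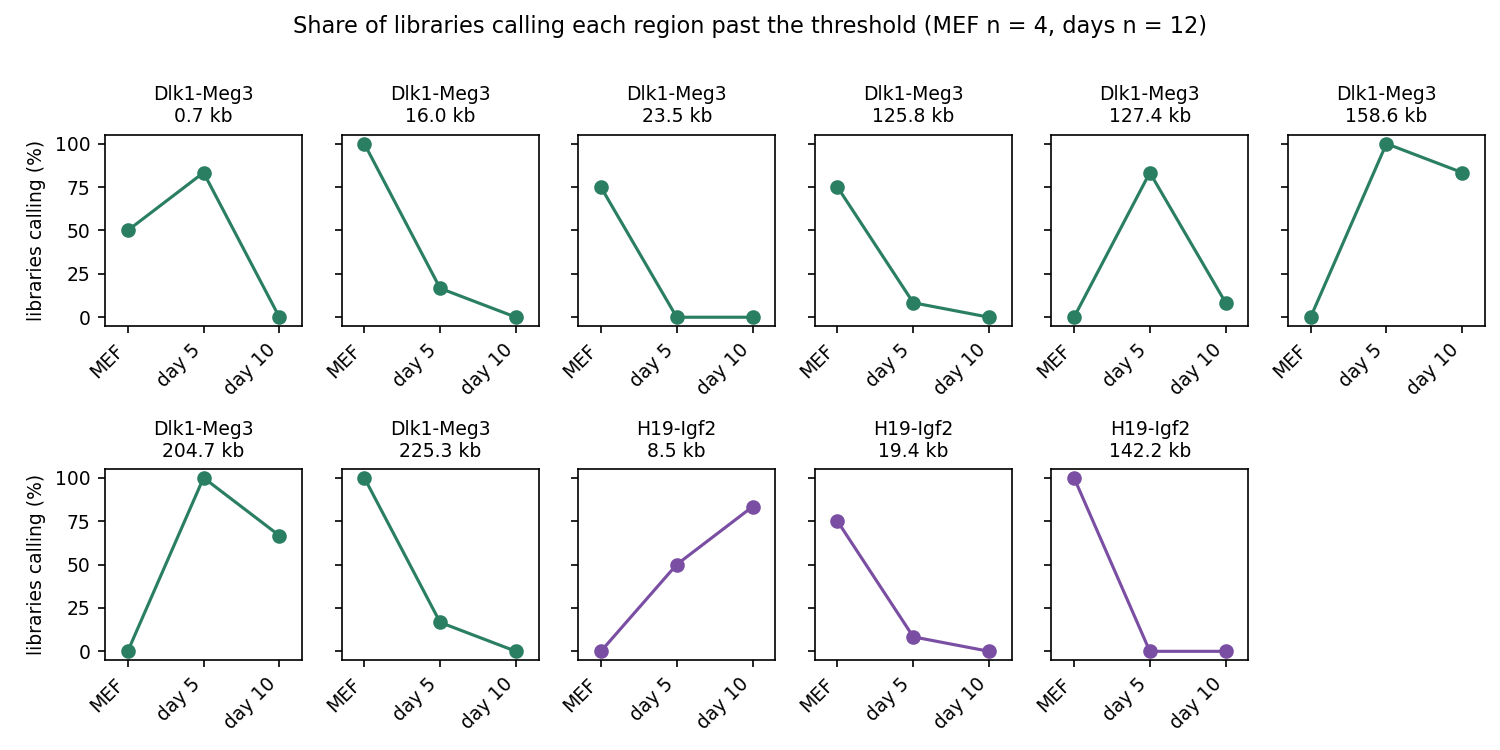
Percentage of libraries (vertical) that called each of the 11 regions past the threshold in at least 1 comparison, in MEFs (n = 4), at day 5 (n = 12) and at day 10 (n = 12); green panels are regions of the Dlk1-Meg3 domain, purple panels those of the H19-Igf2 domain, titled by distance from the domain start. Lines fall from MEFs in 6 panels, rise from MEFs in 4, and in the first panel (0.7 kb) the region is called by 2 of 4, 10 of 12 and 0 of 12 libraries.

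The regions that MEFs lost were spread over the Dlk1-Meg3 domain. The widest region of the domain, chr12:110655649-110656438, was called by 4 of 4 MEF libraries, by 2 of 12 day 5 libraries, both with empty vector, and by 0 of 12 day 10 libraries. Its summit pileups in MEFs were 38, 32, 34 and 29, which placed it within the best 6.71% to 11.8% of each MEF list. The 2 day 5 calls had pileups of 9 and 11. The adjusted p of Fisher's exact test was 0.0318 for day 5 and 0.00374 for day 10. Leaving out any 1 MEF library ended the call for day 5, while the call for day 10 held in each case.

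A second region with the same calls by stage was chr12:110865210-110865449, which lies just before the longest peak-free stretch. It was called by 4 of 4 MEF libraries with pileups of 25, 10, 16 and 19, by 2 Tet2-WT libraries at day 5 with 8 and 8, and by none at day 10. Its adjusted p by Fisher's exact test was 0.0318 for day 5 and 0.00374 for day 10, and leaving out any 1 MEF library again ended the day 5 call. This region, with the pair described next, was singled out after its values were seen.

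Of that pair, chr12:110663331-110663633 was called by MEF libraries 1, 3 and 4, with pileups of 18, 10 and 7, and by no other library (adjusted p = 0.0311 for day 5 and 0.0276 for day 10, Fisher's exact test). The other, chr12:110765742-110765925, was called by 3 of 4 MEF libraries, 1 of 12 day 5 and 0 of 12 day 10 libraries. It was past the threshold for day 10 alone (adjusted p = 0.0276 for day 10 and 0.0903 for day 5, Fisher's exact test). Its MEF pileups of 9, 6 and 7 were near the calling limit, with a −log10 q of 4.938, 3.65 and 4.816, all under 5. The day 5 call, in a Tet2-WT library, had a pileup of 14 and a −log10 q of 6.148. Both calls of the first ended when MEF library 3 or 4 was left out. They also ended with the 50% cover rule (peaks had to cover 50% of the region) and when only peaks with a −log10 q of at least 5 were kept. In this first region the peak of MEF library 1 joined those of libraries 3 and 4, which did not overlap each other. Without library 1 the region was split and so not tested. Leaving out MEF library 1, 2 or 4 ended the call of the second.

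The regions that reprogramming cells gained lay in the middle of the Dlk1-Meg3 domain. No MEF library called chr12:110798258-110798877, while 12 of 12 day 5 and 10 of 12 day 10 libraries did, which makes it one of the 2 most widely called regions of the domain. Its day 5 pileups were 14, 13, 16 and 12 with empty vector, 14, 17, 16 and 13 with Tet2-WT, and 20, 14, 20 and 11 with Tet2-E. At day 10 the calling libraries had 9, 10 and 9, then 10, 12 and 8, then 11, 9, 12 and 7. The groups of 1 day overlapped between vectors. The adjusted p of Fisher's exact test was 0.00449 for day 5 and 0.0292 for day 10, and the day 10 call ended when any 1 MEF library was left out, with the −log10 q limit of 5 and with every list cut to its best 27809 peaks, the length of the shortest list. Summits of the 22 peaks were spread over 521 bases, so the region joins peaks at more than 1 position, and the day 5 call ended when peaks had to cover 50% of it and when replicate 1 of every group was left out.

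The region chr12:110844379-110844959 was likewise called by 0 of 4 MEF, 12 of 12 day 5 and 8 of 12 day 10 libraries. Day 5 pileups were 21, 14, 11 and 13 with empty vector, 21, 22, 18 and 14 with Tet2-WT, and 16, 23, 20 and 16 with Tet2-E. The 8 calling libraries of day 10 had pileups of 8 to 11. The gain passed for day 5 (adjusted p = 0.00449, Fisher's exact test) and not for day 10 (adjusted p = 0.168). Its summits spread over 322 bases, and the day 5 call ended with the 50% cover rule. The day 5 calls of this region and of the one before it ended as well with lists cut to equal length.

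**Figure D4:**
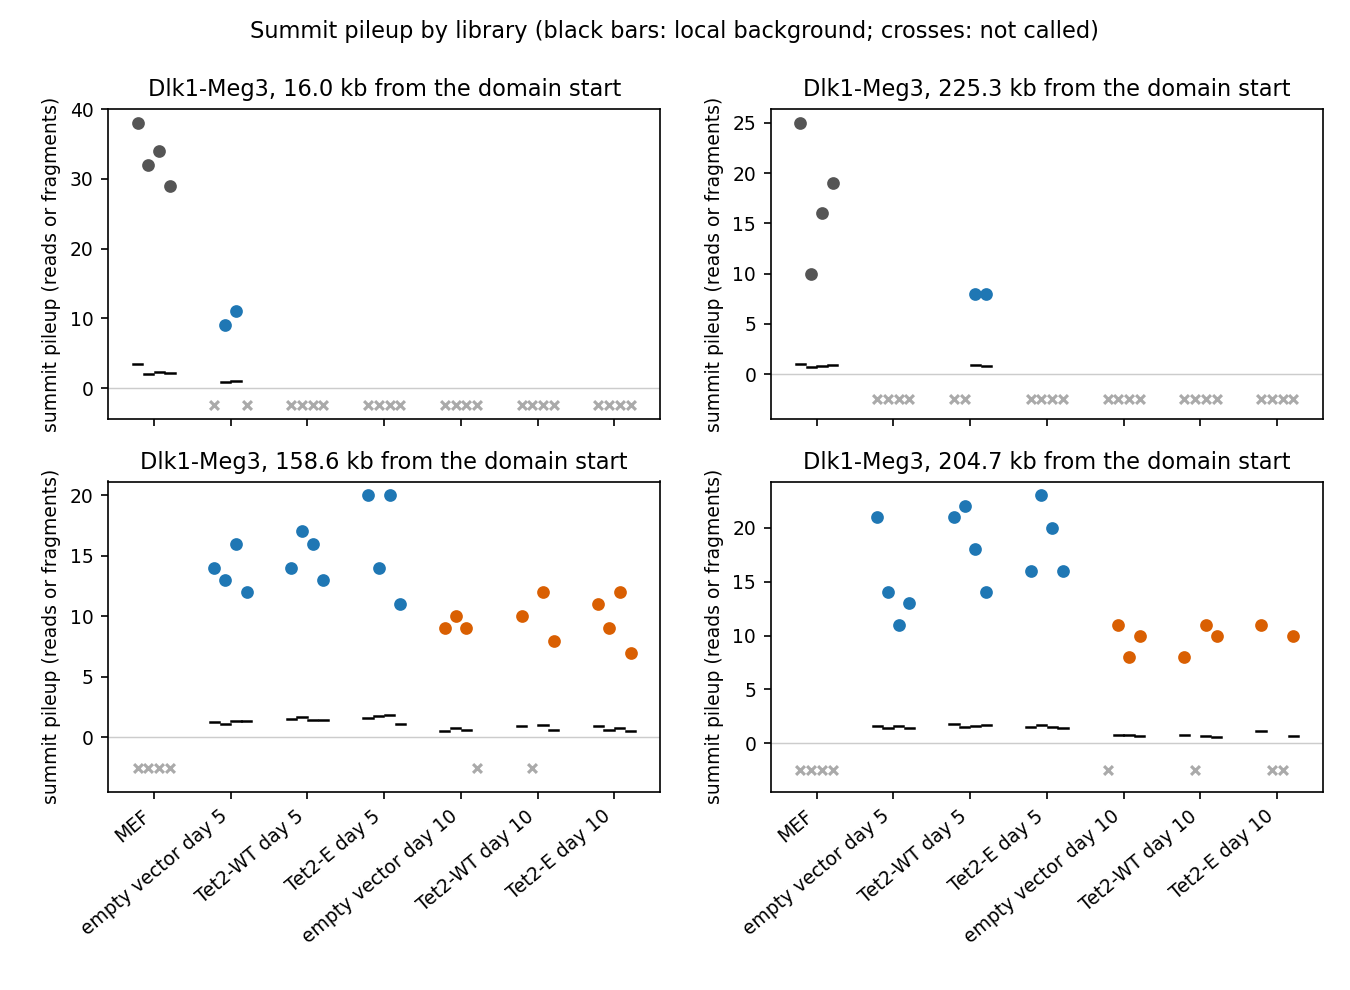
Summit pileup (vertical, reads or fragments) in each library, by group (horizontal), for 4 regions of the Dlk1-Meg3 domain; points are libraries that called the region, black bars their local background, and grey crosses libraries with no call. The upper 2 regions were called by 4 of 4 MEF libraries and the lower 2 by 12 of 12 day 5 libraries and no MEF library; pileups are not scaled between libraries, so heights are compared with the bars of the same library only.

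Another gained region, chr12:110767191-110767526, was open at day 5 in the sense of peak calls and was rarely called on either side of it. It was called by 0 of 4 MEF libraries, by 10 of 12 at day 5 (3, 4 and 3 for empty vector, Tet2-WT and Tet2-E) and by 1 of 12 at day 10, a Tet2-WT library. Day 5 pileups ran from 9 to 17 and the day 10 call had 8. The gain by day 5 had an adjusted p of 0.0318 by Fisher's exact test, and leaving out any 1 MEF library ended it, as did the 50% cover rule, the −log10 q limit and lists cut to equal length. From day 5 to day 10 its adjusted p was 0.0507 by an exact test stratified by vector, which missed the threshold and passed it when any 1 of the 24 reprogramming libraries was left out. Leaving out a library adds no data, and the adjusted p also depends on all other regions tested, so this is not read as a loss. With any 1 replicate number left out of every group, 0 regions of the genome passed in this comparison.

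From day 5 to day 10, the exact test stratified by vector found 0 gained and 1 lost among 19 tested regions of the Dlk1-Meg3 domain, against 0.144% gained and 1.00% lost of 83195 regions in the genome. At an unadjusted p under 0.05 the domain had 0 with more and 2 with fewer calling libraries, against 1.39% and 10.8% of the genome's tested regions. The lost region was chr12:110640483-110640916, at the very start of the domain, which 2 of 4 MEF, 10 of 12 day 5 and 0 of 12 day 10 libraries called (adjusted p = 0.0212, exact test). It was called by 3, 3 and 4 libraries of the vectors at day 5, with pileups of 9 to 21 and 11 and 14 in the 2 MEF libraries. The call ended when only peaks with a −log10 q of at least 5 were kept, when lists were cut to equal length, and when any 1 replicate number was left out of every group. For H19-Igf2, the same exact test passed 0 of 7 regions in either direction, and 0 had an unadjusted p under 0.05 beside the same genome-wide 1.39% and 10.8% (smallest adjusted p = 0.785).

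Other regions of the Dlk1-Meg3 domain were called at every stage. The region chr12:110987917-110988361, near the end of the domain, was called by 4 of 4 MEF, 10 of 12 day 5 and 8 of 12 day 10 libraries, and it did not pass in any comparison. It was the best-ranked domain peak in all 4 MEF libraries, with pileups of 50, 39, 34 and 29 and ranks in the best 1.77% to 7.20% of the lists. The calling libraries had pileups of 10 to 16 at day 5 and 6 to 12 at day 10, with ranks that began at 27.8% and 35.4%. Levels of different libraries are not on 1 scale here, so these ranks describe each list and no change between stages.

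Between 124 and 142 kb from the start of the domain several regions lay close together. Of these, chr12:110780966-110781428 was called by 4 of 4 MEF, 9 of 12 day 5 and 7 of 12 day 10 libraries, with MEF pileups of 21, 16, 16 and 12. Its neighbour chr12:110778984-110779351 was called by 3 of 4, 7 of 12 and 5 of 12. The last of these, chr12:110763991-110764273, was called by 0 of 4, 3 of 12 and 8 of 12, with an adjusted p of 0.168 for MEF to day 10 by Fisher's exact test. None of the 3 passed in any comparison.

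The remaining regions of the Dlk1-Meg3 domain chosen for naming were called by 7 or 8 libraries. The region chr12:110674554-110674773 was called by 2 of 4 MEF, 3 of 12 day 5 and 2 of 12 day 10 libraries. The region chr12:110676006-110676192 was called by 0 of 4, 4 of 12 and 4 of 12. The third was chr12:110938384-110938642, with 0 of 4, 4 of 12 and 3 of 12, and it is described with the vectors below. Over the whole domain, 8 regions were called in MEFs alone, 5 of them in 1 library, 21 were called in reprogramming cells alone, 10 of them in 1 library, and 10 were called in both. Only 4 MEF libraries stand against 24 later ones in these counts. Over all 172177 regions of the genome, 25.2% were called in MEFs alone, 48.5% in reprogramming cells alone and 26.3% in both.

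In the H19-Igf2 domain the best-ranked region in the MEF lists was chr7:149842034-149842357. It was called by 4 of 4 MEF libraries and by 0 of 24 reprogramming libraries, with MEF pileups of 35, 20, 20 and 17. Its ranks in the MEF lists ran from 17.48% to 59.69%. By median fold in MEFs it was under chr7:149861671-149861849, at 6.199 against 7.675, and under the 6.517 of all peaks. Its summits lay within 50 bases of each other. The adjusted p of Fisher's exact test was 0.00449 for day 5 and 0.00374 for day 10, and both calls held with any 1 library left out and with each other processing choice tried. As every MEF library and no later library called it, leaving out a library keeps the groups fully separated and adds little to the counts. A region lost by day 10 alone was chr7:149719222-149719572, with 3 of 4 MEF, 1 of 12 day 5 and 0 of 12 day 10 libraries (adjusted p = 0.0276, exact test). The region was weak, with pileups of 10, 9 and 10 in MEFs (−log10 q of 4.288, 4.914 and 5.205) and of 11 in the day 5 library. It began a few bases after a region that most reprogramming libraries called, and it was no longer lost when peaks up to 100 bp apart were merged, which joined both. Leaving out MEF library 1, 2 or 4 also ended its call.

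That neighbour, chr7:149718757-149719213, was the most widely called region of the domain. It was called by 2 of 4 MEF, 10 of 12 day 5 and 10 of 12 day 10 libraries, with pileups of 8 to 17, and did not pass in any comparison (adjusted p = 0.450 and 0.427 for the later days, Fisher's exact test). Its summits spread over 381 bases.

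One region of the H19-Igf2 domain was gained. No MEF library called chr7:149708353-149708607, while 6 of 12 day 5 libraries and 10 of 12 day 10 libraries did. At day 10 the calls were 4, 3 and 3 for empty vector, Tet2-WT and Tet2-E, with pileups of 8 to 15, and at day 5 they were 2, 1 and 3, with pileups of 7 to 15. The gain by day 10 had an adjusted p of 0.0292 by Fisher's exact test, which was lost when any 1 MEF library was left out, with the 50% cover rule and with lists cut to equal length. The step from day 5 to day 10 did not pass (adjusted p = 0.785, exact test stratified by vector).

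The other named regions of the H19-Igf2 domain did not pass in any comparison. The region chr7:149723893-149724149 was called by 1 of 4 MEF, 5 of 12 day 5 and 4 of 12 day 10 libraries. Called in no MEF library were chr7:149796995-149797265, with 3 of 12 and 5 of 12 later libraries, and chr7:149832611-149832961, with 2 of 12 and 5 of 12. The region chr7:149861671-149861849, the last before the peak-free end of the domain, was called by 3 of 4, 2 of 12 and 1 of 12, with an adjusted p of 0.0855 for day 10 by Fisher's exact test. Over the whole domain, 7 regions were called in MEFs alone, 6 of them in 1 library, 10 in reprogramming cells alone, 6 of them in 1 library, and 5 in both, again from 4 against 24 libraries and beside the genome's 25.2%, 48.5% and 26.3%.

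The vectors were compared in pairs within days, which asks whether adding back Tet2-WT or Tet2-E to Tet2-/- cells altered the peaks. No region of either domain passed in any of the 3 pairs, where 17, 17 and 14 regions of the Dlk1-Meg3 domain and 7, 7 and 6 of the H19-Igf2 domain were tested by an exact test stratified by day. Over the genome 0% of regions passed in each pair, out of 74168, 71000 and 73329, and 0.708%, 0.479% and 0.551% had an unadjusted p under 0.05. With 4 libraries per vector and day the test can miss a real difference, so vectors that act alike are not shown. The smallest p of any region in the genome was 0.000408 (empty vector against Tet2-WT, exact test stratified by day). A p of that size passes the adjustment only where many regions share it, so 0 passing says little about the vectors. The smallest unadjusted p in the domains was 0.0306, for empty vector against Tet2-E at chr12:110938384-110938642 (adjusted p = 1, exact test). Empty vector libraries called it 3 of 4 times at day 5 and 2 of 4 at day 10, Tet2-WT libraries 1 of 4 on each day, and Tet2-E libraries 0 of 4 on each day, with pileups of 7 to 12. In the Dlk1-Meg3 domain it was 1 region of 17 with an unadjusted p under 0.05 in that pair, and in the other 2 pairs there were 0. The H19-Igf2 domain had 0 in all 3 pairs.

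The 4 regions gained by day 5 or day 10 were called with every vector, but their selection already required this. The test for a gain pooled the vectors. With 0 of 4 MEF libraries, 8 of 12 later libraries gave an unadjusted p of 0.0769 by Fisher's exact test. A region with no calls for a vector could therefore not pass, so whether the gains depended on the vector is not answered by these calls. At day 5, chr12:110798258-110798877 and chr12:110844379-110844959 were called by 4 of 4 libraries of each vector. Of the regions that MEFs lost, 2 were still called by 2 day 5 libraries each. The 2 calls at chr12:110655649-110656438 were both in empty vector libraries, and the 2 at chr12:110865210-110865449 were both in Tet2-WT libraries. Calls in 2 libraries are too few for a test between vectors to pass, so these tests could not decide (unadjusted p = 0.429 in the pairs tested, exact test stratified by day).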

How the data were processed

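The deposited files were MACS2 peak lists, 1 for each library and none for pooled libraries. The submitters' processing notes name Bowtie2, SAMtools, bedtools, MACS2 and build mm9. Not given in the sources used here are their versions, settings and how cut sites were shifted, if at all. The deposited columns hold, per peak, a score, a fold (ratio) over local background, and −log10 p and −log10 q, with the distance of the summit from the peak's start. The deposited score equalled 10 times the −log10 q in 100% of peaks. These values are the peak caller's own and were used within a list only.

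Peaks on 20 chromosomes were merged where they overlapped by 1 bp, and coordinates are counted from 1. Regions in at least 2 of 28 libraries, and in at least 2 of those compared, were tested. Summit pileup and background were recovered from the deposited fold and −log10 p, with whole pileups for 100% of peaks (tolerance 0.0002 in −log10 p). Tests were 2-sided exact tests (Python 3.11.15, SciPy 1.17.1, pandas 2.3.3), stratified by vector or day where stated, with Benjamini-Hochberg adjustment. They were checked on simulated calls of independent libraries, which did not include differences in list length or pileups near the calling limit. The smallest p for 4 libraries against 12 is 0.000549.

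The domains, members and lists were chosen with earlier results of these data known. Regions named were those in at least 6 libraries, in 4 of 4 of a group or past the threshold, up to 12 per domain by number of calling libraries. Numbers of libraries limit the precision, and total read depth is unknown from the peak lists.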

Additional observations from a re-analysis of the deposited data

Results flagged for a closer look

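Of the 14 counts of peaks per domain and group, 2 held a library apart from its 3 equal neighbours. The limit used is nominally passed by chance in about 1 in 20 groups, a rate not worked out for small whole numbers with ties, so the number of such groups is not read as more or fewer than chance. In the Dlk1-Meg3 domain, empty vector day 5 replicate 4 had 6 peaks against 10 in each of the other libraries of its group. In the H19-Igf2 domain, empty vector day 5 replicate 1 had 4 peaks against 3 in each of the others, a gap of 1 peak.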

How the results depend on the processing

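The loss from MEF to day 10 of chr12:110655649-110656438 and chr12:110865210-110865449, and the loss of chr7:149842034-149842357 at both days, kept their calls in all 11 other processing settings and in the 28 settings that leave out 1 library, which were added after seeing the data. Each was called by every MEF library and by none of the later day compared, so leaving out libraries keeps the groups fully separated. Counts of gained or lost regions moved more. Of the 6 regions of the Dlk1-Meg3 domain between MEF and day 5, lists cut to equal length gave 2 and the replicate block gave 2. Of its 5 regions between MEF and day 10, peaks with a −log10 q of at least 5 gave 2, equal lists 2 and the replicate block 2. Its 1 region between day 5 and day 10 became 2 with regions in at least 4 libraries and with peaks merged up to 100 bp apart, and 0 with 50% cover, the −log10 q limit, equal lists and the replicate block. In the H19-Igf2 domain, the 1 region between MEF and day 5 became 2 with 50% cover, and the 3 between MEF and day 10 became 1 with equal lists and 1 with the replicate block. Leaving out libraries, singly or by number, gave 1 to 7, 2 to 6 and 0 to 2 regions for the Dlk1-Meg3 domain and 1 to 2, 1 to 4 and 0 to 0 for the H19-Igf2 domain, in the order MEF to day 5, MEF to day 10 and day 5 to day 10. The low ends came from leaving out a MEF library or 1 replicate number of every group. With 3 MEF libraries against 9 the smallest p of the exact test rises to 0.00455. Without MEF library 3, or without empty vector day 5 library 3, the H19-Igf2 count for day 5 was 2. Without any 1 of the 24 reprogramming libraries, the Dlk1-Meg3 count from day 5 to day 10 was 2. Results between vectors were 0 throughout, as was the H19-Igf2 result from day 5 to day 10. With peaks merged up to 100 bp apart, chr7:149719222-149719572 joined its neighbour and its change from MEF to day 10 turned to 8.33 percentage points (adjusted p = 1, exact test). With 50% cover no region of either domain was gained from MEF, and 4 and 5 of the Dlk1-Meg3 domain were lost. Same-numbered libraries of different groups deviated together only weakly (correlations of −0.0185 to 0.0902 over 84 pairs, median 0.0038, none over 0.1). Libraries with different numbers had −0.0789 to 0.0488 over 252 pairs, with a median of −0.0011. Whether same-numbered libraries share an embryo or a culture cannot be told from these values. Single calls that the replicate block kept were the losses named first and the day 5 gains of chr12:110798258-110798877 and chr12:110844379-110844959. The cause of these shifts was not tested.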
